A study of Mus musculus with 6 samples.

Results

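Bone morphogenetic protein (BMP) signalling was followed through 10 genes in mouse embryonic stem cells (mESCs) with and without forced *HOXA13* expression. The genes were the inhibitors of differentiation *Id1*, *Id2*, *Id3* and *Id4*, the intracellular inhibitors *Smad6* and *Smad7*, the decoy receptor *Bambi*, the secreted antagonists *Nog* and *Grem1*, and the ligand *Bmp4*. The genes were chosen with earlier results of these data known. Their counts were taken by symbol from the 24393 features counted in each library. All 10 passed the filter on low counts, as did 13846 features in all. RNA-seq libraries came from 3 control and 3 *HOXA13*-overexpressing cultures of KH2 cells, a mESC line of strain C57/BL/6 in the labels, with genotype CONTROL or HOXA13. Cultures of both groups were non-differentiated and grew in serum with LIF, a cytokine that maintains pluripotency, on irradiated mouse fibroblasts (3T3-Swiss albino cells) as feeder cells. Human *HOXA13* with a FLAG tag was targeted into the cells under the control of doxycycline. The labels state that no treatment was given, although the methods describe doxycycline for testing the clones. Whether the sequenced control cultures received doxycycline is not given, so an effect of *HOXA13* and one of doxycycline cannot be told apart if only the *HOXA13* cultures did. The methods call the 3 cultures of each group biological replicates chosen after correctly targeted clones had been tested, and do not say whether each came from a clone of its own. The p-values measure the spread between these cultures.

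Total counts lay between 14608681 and 21766589 in control libraries and between 13494135 and 20374341 in *HOXA13* libraries. Expression is given as CPM, counts scaled to a common library size with TMM factors, and a level of 3 counts corresponds to 0.134 to 0.227 CPM in these libraries, a limit that covers counting error only. The test was edgeR's quasi-likelihood test, and p-values were adjusted by Benjamini-Hochberg across the 13846 genes. A gene is called when its adjusted p is under 0.05. The feature with the human Ensembl identifier ENSG00000106031, that of *HOXA13*, was counted 4298, 4177 and 2881 times in the *HOXA13* libraries against 6, 0 and 0 times in control, so each library matched its label. The control libraries stood further apart from each other than the *HOXA13* libraries did. The chi-square per degree of freedom between libraries of a pair was 12.7 to 34.2 for control and 1.89 to 6.03 for *HOXA13*. The 12 embryonic stem cell marker genes summed to 3140 to 4159 CPM in control and 3828 to 3925 CPM in *HOXA13* libraries, and none was at or under the floor in every library.

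BMPs are secreted ligands that bring together type I and type II receptors, which then phosphorylate SMAD1, SMAD5 and SMAD9. These join SMAD4, enter the nucleus and activate target genes, among which the *Id* genes are the best known. ID proteins lack a DNA-binding domain and capture basic helix-loop-helix (bHLH) transcription factors, and in mESCs cultured with serum or BMP4 they restrain differentiation. *Smad6*, *Smad7* and *Bambi* are also activated by the pathway and act against it. SMAD6 and SMAD7 compete at the receptors and at SMAD4, and BAMBI resembles a type I receptor without a kinase. Noggin and gremlin 1, encoded by *Nog* and *Grem1*, bind BMPs outside the cell and keep them from their receptors.

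The stretch before the transcription start is shown for the members whose window held a Smad-type motif, to set the sequence beside the response in expression. RefSeq sequences of build GRCm38.p6 were at hand for 6 of the 10 members (*Id2*, *Id3*, *Id4*, *Smad6*, *Grem1* and *Bmp4*). That build differs from mm9, the build of the counts, so these positions do not apply to the gene coordinates given with the expression values. Each window runs 5′ to 3′ on the strand of the gene from 250 bases before to 30 bases after the start, and capitals mark the motif. Both strands of the windows of 300 bases, up to 50 bases after the start, were searched for the Smad palindrome GTCTAGAC and the GC-rich Smad element GGCGCC, which both read the same on either strand, and for the HOX13-type motifs CAATAAA and TCGTAAA. The 4 motifs did not overlap with each other in any member's window. The *Smad6* window was at chr9:64022030-64022309 on the minus strand, *Id2* at chr12:25096063-25096342 on the minus strand, *Id4* at chr13:48260866-48261145 on the plus strand and *Grem1* at chr2:113758619-113758898 on the minus strand.
Smad6: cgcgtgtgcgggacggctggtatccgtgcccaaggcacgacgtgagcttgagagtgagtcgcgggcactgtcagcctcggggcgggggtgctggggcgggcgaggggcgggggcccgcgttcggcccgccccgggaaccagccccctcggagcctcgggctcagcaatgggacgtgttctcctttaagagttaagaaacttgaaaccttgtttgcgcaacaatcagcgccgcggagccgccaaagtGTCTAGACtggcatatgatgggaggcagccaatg
Id2: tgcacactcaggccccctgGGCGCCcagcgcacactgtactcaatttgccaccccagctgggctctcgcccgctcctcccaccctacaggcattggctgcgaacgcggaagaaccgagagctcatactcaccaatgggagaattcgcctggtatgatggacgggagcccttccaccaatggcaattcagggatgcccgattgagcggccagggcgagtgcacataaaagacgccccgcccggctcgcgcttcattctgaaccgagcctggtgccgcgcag
Id4: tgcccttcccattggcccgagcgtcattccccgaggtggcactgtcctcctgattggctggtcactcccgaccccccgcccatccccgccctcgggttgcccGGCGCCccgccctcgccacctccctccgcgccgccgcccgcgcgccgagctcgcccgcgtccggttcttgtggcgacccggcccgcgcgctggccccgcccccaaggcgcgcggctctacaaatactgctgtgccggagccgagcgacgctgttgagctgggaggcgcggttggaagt
Grem1: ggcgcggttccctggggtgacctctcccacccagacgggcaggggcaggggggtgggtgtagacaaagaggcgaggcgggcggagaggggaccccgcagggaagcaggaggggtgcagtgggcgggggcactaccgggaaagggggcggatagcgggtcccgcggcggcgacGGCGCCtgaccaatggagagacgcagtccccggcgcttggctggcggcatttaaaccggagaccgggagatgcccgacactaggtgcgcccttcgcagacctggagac

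The palindrome GTCTAGAC lay across the start of *Smad6*, from position -4 to position 4, counted without a 0. It was present in 70 of 32851 promoter windows of the same length (0.213%). The element GGCGCC lay at -231 to -226 in *Id2*, at -148 to -143 in *Id4* and at -78 to -73 in *Grem1*, and 3898 of the 32851 windows (11.9%) held it. The *Id3* and *Bmp4* windows held neither. CAATAAA and TCGTAAA, found in 4.6% and 0.597% of all windows, were not among the letters of these 6 windows. A match describes letters in a window and shows no binding.

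The inhibitory Smads *Smad6* and *Smad7* and the decoy receptor *Bambi* were higher with *HOXA13*. *Smad6* showed the largest log2 fold change of the 10 members, followed among these 3 genes by *Smad7* and *Bambi*. Across all 10 members, 7 were called, 5 higher and 2 lower, against 27.7% of all genes tested called in either direction, 14.4% called higher and 13.3% called lower. The libraries of the groups did not overlap for the same 7 members, which was also so for 45.7% of all genes tested. The members' median log2 fold change was 0.53, while that of all genes tested was 3.73e-05, with quartiles of -0.23 and 0.23. As the members were chosen with earlier results of these data known, these shares and medians describe them and test nothing.

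*Smad6* (ENSMUSG00000036867.5), whose product binds type I BMP receptors and SMAD1, lies on chromosome 9 of mm9 from 63800953 to 63869866 on the minus strand. It had 6.96, 7.88 and 6.82 CPM in the control libraries and 26.3, 26.6 and 24.9 CPM in the *HOXA13* libraries. The 3 libraries of each group lay close together and the groups were far apart. The means were 7.22 ± 0.58 CPM (SD, n = 3) and 25.9 ± 0.89 CPM (SD, n = 3), a log2 fold change of 1.85 (standard error 0.10, edgeR adjusted p = 2.14e-05).

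*Smad7* (ENSMUSG00000025880.5), which blocks receptors of both the BMP and the TGF-beta branch, lies on chromosome 18 from 75527183 to 75555589 on the plus strand. Its levels were 70.3, 109 and 86.5 CPM in control and 172, 179 and 193 CPM in *HOXA13* cultures. The control libraries varied more than the *HOXA13* libraries, and the lowest *HOXA13* library stood above the highest control. *Smad7* rose from 88.7 ± 19.6 to 181 ± 10.6 CPM (SD, n = 3 each), and its log2 fold change was 1.03 (standard error 0.14, edgeR adjusted p = 0.00168). *Bambi* (ENSMUSG00000024232.1), also on chromosome 18, from 3507955 to 3516402 on the plus strand, had 17.8, 18.5 and 17.3 CPM in control against 35.2, 29.9 and 30.1 CPM in *HOXA13* libraries. All control libraries were nearly alike, and *HOXA13* replicate 1 was the highest of the other group. The log2 fold change was 0.83 (standard error 0.10, edgeR adjusted p = 0.000691). Its pseudogene *Bambi-ps1* had between 1 and 11 counts in a library. How reads that match both copies were counted is not given, so the level of *Bambi* is uncertain to that extent.

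**Figure D1:**
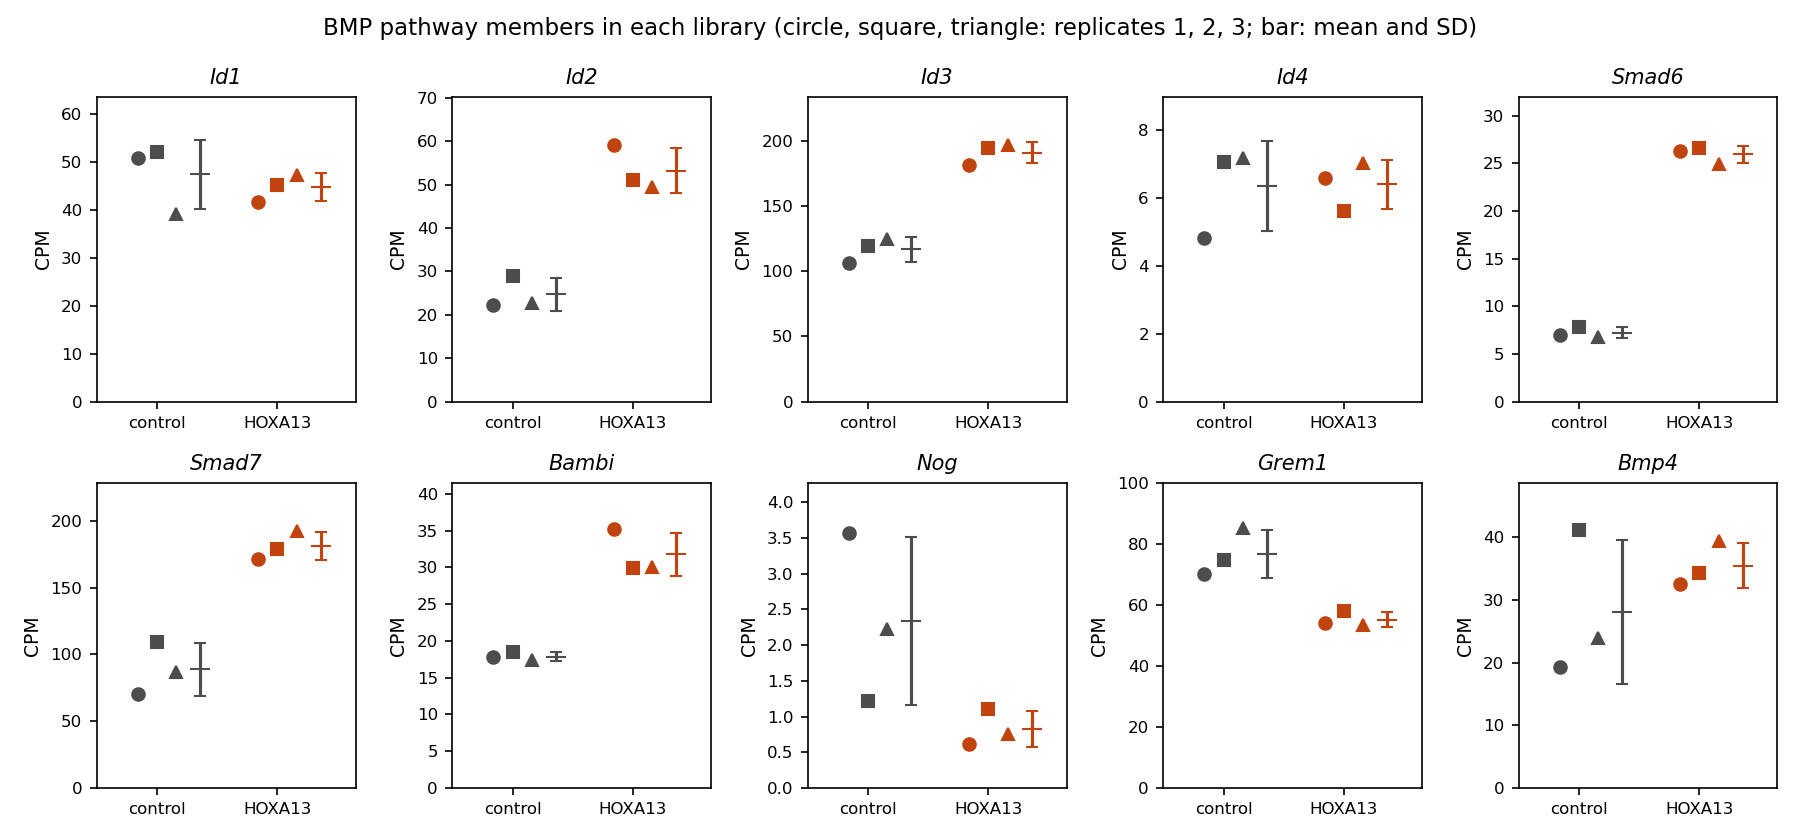
Expression of the 10 members in each of the 3 control and 3 *HOXA13* libraries, in CPM on axes that start at 0, with 1 point per library (circle, square and triangle for replicates 1, 2 and 3) and a bar for the group mean and SD. The groups are apart for *Smad6*, *Smad7*, *Bambi*, *Id2*, *Id3*, *Nog* and *Grem1* and overlap for *Id1*, *Id4* and *Bmp4*.

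The *Id* genes did not move as a group. *Id2* and *Id3* were higher with *HOXA13*, while *Id1* and *Id4* were not called. *Id2* (ENSMUSG00000020644.8; chromosome 12 from 25778666 to 25780957, minus strand) had 22.3, 29.0 and 22.8 CPM in control and 59.2, 51.0 and 49.4 CPM in *HOXA13* libraries. Every *HOXA13* library was above every control library. The means of 24.7 ± 3.73 and 53.2 ± 5.25 CPM (SD, n = 3 each) gave a log2 fold change of 1.11 (standard error 0.12, edgeR adjusted p = 0.000567), or 2.16-fold. *Id3* (ENSMUSG00000007872.3; chromosome 4 from 135699412 to 135701670, plus strand) went from 106, 119 and 125 CPM to 182, 194 and 197 CPM. The groups were again separate, with a narrow spread in each. Its log2 fold change was 0.71 (standard error 0.08, edgeR adjusted p = 0.000493), or 1.63-fold.

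*Id1* (ENSMUSG00000042745.9; chromosome 2 from 152561987 to 152563146, plus strand), a widely used readout of BMP signalling, had 50.9, 52.1 and 39.1 CPM in control and 41.7, 45.2 and 47.3 CPM in *HOXA13* cultures. All *HOXA13* libraries lay within the range of the controls. The log2 fold change was -0.08 (standard error 0.12, edgeR adjusted p = 0.644), with a 95% interval from -0.35 to 0.19. *Id4* (ENSMUSG00000021379.1; chromosome 13 from 48356796 to 48359405, plus strand) had 4.82, 7.07 and 7.18 CPM in control and 6.60, 5.61 and 7.03 CPM in *HOXA13* libraries, which overlapped throughout. With 93 to 142 counts in a library, its log2 fold change of 0.02 (standard error 0.20, edgeR adjusted p = 0.958) had a 95% interval from -0.43 to 0.47, so that a change of the size of *Id3* lay outside it. *Id4* overlaps the long non-coding RNA gene *A330033J07Rik* on the opposite strand, which had 0 counts in every library.

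Levels of different genes were compared per kilobase of exon (CPM per kb, with exon lengths from GENCODE for mm9), and for the *Id* genes this showed how the family's makeup differed. The summed level of the 4 *Id* genes was 129 ± 8.03 CPM per kb in control and 191 ± 2.92 CPM per kb in *HOXA13* cultures (SD, n = 3 each). *Id3* was the most abundant in both, with 50.5 ± 4.29% of the sum in control and 55.8 ± 1.60% in *HOXA13* libraries. *Id1* came next in control, at 31.6 ± 4.36%, and made up 20.2 ± 0.98% with *HOXA13*. The share of *Id2* was 14.2%, 16.5% and 14.3% in the control libraries and 24.8%, 21.0% and 20.1% in the *HOXA13* libraries, where it overlapped that of *Id1*. *Id4* held 2.95 ± 0.56% and 2.02 ± 0.22%. These shares are a description and were not tested, and a share can fall because another member rose. They are of bulk RNA from dishes that also held feeder fibroblasts. Which cells the counts came from was not tested for any member.

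Over all 10 members, the control order of levels per length was *Id3* (65.2 ± 5.23 CPM per kb), *Id1* (40.8 ± 6.19), *Smad7* (19.6 ± 4.33), *Id2* (19.5 ± 2.94), *Grem1* (18.5 ± 1.89), *Bmp4* (12.6 ± 5.18), *Id4* (3.83 ± 0.80), *Bambi* (3.55 ± 0.12), *Smad6* (2.30 ± 0.18) and *Nog* (1.22 ± 0.61). In this order the libraries of *Smad7* and *Id2*, of *Id2* and *Grem1*, of *Grem1* and *Bmp4* and of *Id4* and *Bambi* overlapped, so these neighbours were not apart. In *HOXA13* cultures *Id3* stayed first, at 107 ± 4.51 CPM per kb. *Id2* (41.9 ± 4.14), *Smad7* (40.0 ± 2.35) and *Id1* (38.6 ± 2.45) followed with overlap between neighbours. *Bmp4* (15.9 ± 1.62) was then above *Grem1* (13.3 ± 0.62), and *Smad6* (8.27 ± 0.28) was above *Bambi* (6.30 ± 0.59), *Id4* (3.86 ± 0.44) and *Nog* (0.43 ± 0.13). *Smad6* thus remained a gene of low level among the members despite the largest fold change. With the length of the longest transcript in place of all exons, *Id3* came to 91.4 and 149 CPM per kb in the 2 groups and *Smad7* was placed before *Id2* in *HOXA13* cultures, with every other rank kept.

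**Figure D2:**
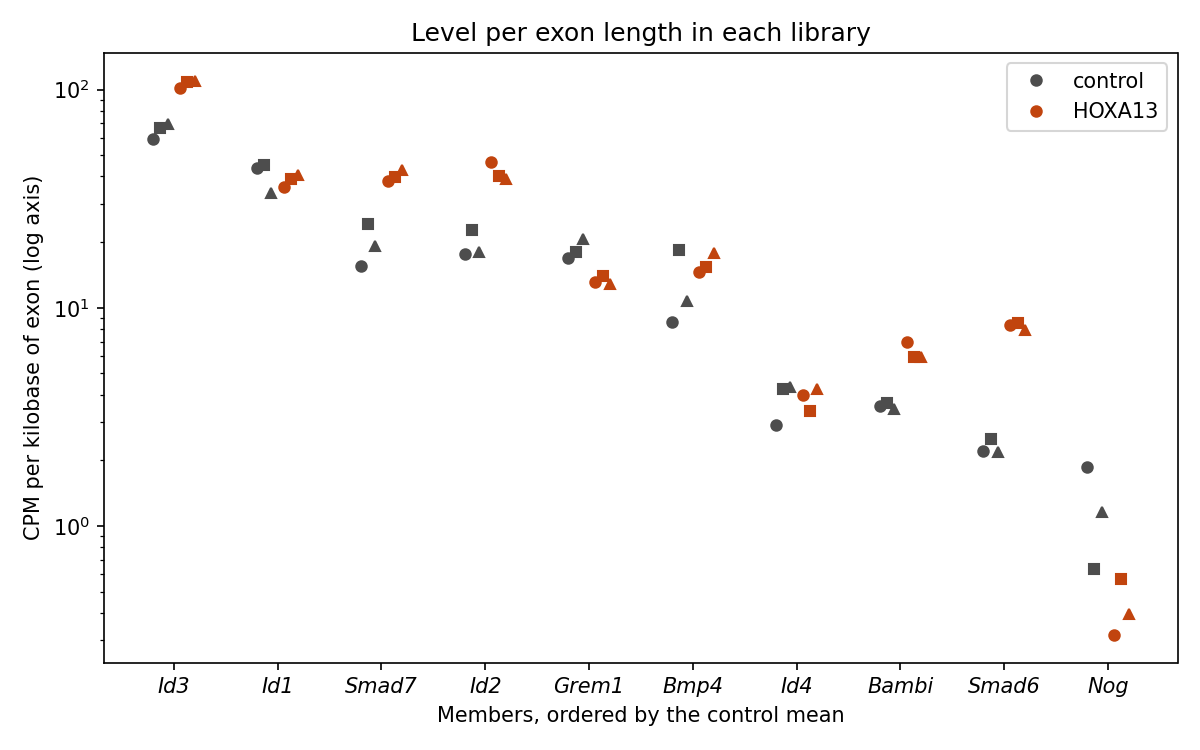
Level of each member per kilobase of exon (CPM per kb, log axis) in the 3 control and 3 *HOXA13* libraries, 1 point per library (circle, square and triangle for replicates 1, 2 and 3), ordered by the control mean. *Id3* is at the top and *Nog* at the bottom in both groups, while *Id2*, *Smad7* and *Id1* lie together in *HOXA13* cultures.

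The secreted antagonists were lower with *HOXA13*, *Grem1* by a modest amount and *Nog*, the least abundant member, by more. *Grem1* (ENSMUSG00000074934.3; chromosome 2 from 113586321 to 113598803, minus strand) had 70.1, 74.9 and 85.4 CPM in control and 54.2, 58.1 and 53.3 CPM in *HOXA13* libraries. Every control library was above every *HOXA13* library. *Grem1* fell by 0.48 on the log2 scale (standard error 0.09, edgeR adjusted p = 0.00614), from 76.8 ± 7.83 to 55.2 ± 2.56 CPM (SD, n = 3 each). Gremlin 1 is made by fibroblasts, and feeder fibroblasts shared the dishes. In bulk RNA, fewer cells of a type and less RNA per cell cannot be told apart. The 23 fibroblast markers summed to 7466 to 10544 CPM in control and 9574 to 11640 CPM in *HOXA13* libraries, 0.769% to 1.14% of the counts, and none was at or under the floor in every library. Of these 23 genes 0 were called higher and 2 lower, or 8.7% called against 27.7% of all genes tested. The 2 were *Pdgfra* (log2 fold change -0.80, standard error 0.20, edgeR adjusted p = 0.0192) and *Cdh2* (-0.27, standard error 0.07, adjusted p = 0.0168). Per 1000 CPM of these markers there were 9.39, 7.16 and 8.10 CPM of *Grem1* in control and 5.66, 5.29 and 4.58 CPM in *HOXA13* cultures, so that the groups were separate on this scale too. Which cells the *Grem1* counts came from was not tested.

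*Nog* (ENSMUSG00000048616.3; chromosome 11 from 89161952 to 89163873, minus strand) was counted 80, 18 and 44 times in control and 12, 20 and 10 times in *HOXA13* libraries, or 3.57, 1.22 and 2.22 CPM against 0.61, 1.10 and 0.76 CPM. Control replicate 2 was only slightly above the highest *HOXA13* library, and control replicate 1 was far above it. *Nog* fell by 1.53 on the log2 scale (standard error 0.43, edgeR adjusted p = 0.0316). This call was close to the threshold and did not hold in most fits with 1 library left out. It was lost without control replicate 1 (-1.09, adjusted p = 0.0562) or control replicate 3 (-1.57, adjusted p = 0.0749). It was also lost without *HOXA13* replicate 1 (-1.33, adjusted p = 0.139), *HOXA13* replicate 2 (-1.80, adjusted p = 0.063) or *HOXA13* replicate 3 (-1.47, adjusted p = 0.105). With the replicate number as a block it was lost too (-1.45, adjusted p = 0.0721). Among these fits the estimate was smallest in size without control replicate 1. Calls over all genes were also fewer without control replicate 3 or any *HOXA13* library. Markers of mesendoderm, the earliest step away from pluripotency towards gut and mesoderm, varied in the same libraries. The 12 mesendoderm markers summed to 525, 90.4 and 255 CPM in the control libraries and to 52.8, 54.1 and 53.5 CPM in the *HOXA13* libraries. *T*, the defining gene of this list, had 181, 10.5 and 85.2 CPM in control and 1.37, 2.48 and 2.27 CPM in *HOXA13* libraries. Control replicate 1 was thus the highest and control replicate 2 the lowest of the controls for *Nog*, for *T* and for the list, and the part of such cells in the *Nog* values was not tested.

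**Figure D3:**
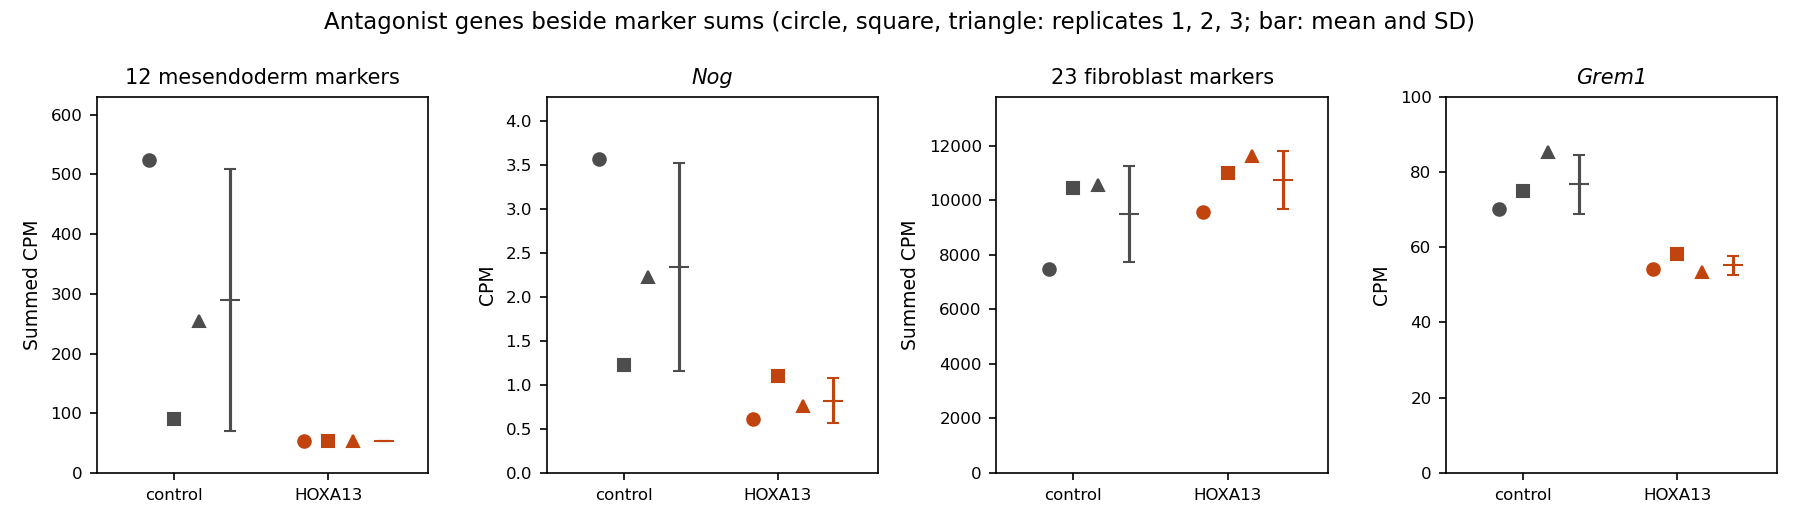
From left to right, the summed level of 12 mesendoderm markers, *Nog*, the summed level of 23 fibroblast markers and *Grem1* in each library, in CPM on axes that start at 0, with circle, square and triangle for replicates 1, 2 and 3 and a bar for the group mean and SD. Among the controls *Nog* and the mesendoderm sum are both highest in replicate 1 and lowest in replicate 2, while the fibroblast sums of the groups overlap and *Grem1* is lower in every *HOXA13* library.

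*Bmp4* (ENSMUSG00000021835.8; chromosome 14 from 47003195 to 47010344, minus strand), the ligand among the members, had 19.2, 41.1 and 23.9 CPM in control and 32.5, 34.3 and 39.5 CPM in *HOXA13* libraries. Control replicate 2 was the highest of all 6 libraries and the other control libraries were the lowest. The log2 fold change was 0.34 (standard error 0.25, edgeR adjusted p = 0.343), with a 95% interval from -0.23 to 0.92. Without control replicate 2 it was 0.71 with an adjusted p of 0.00246, so this library decided whether *Bmp4* was called. The genes of chromosome 14 had a median log2 fold change of 0.26, and with each chromosome centred the value for *Bmp4* was 0.10. *Gm15217*, which overlaps *Bmp4* on the opposite strand, had 2 counts in control replicate 1 and 0 in the other libraries. *Gm15222*, also on the opposite strand, lies within *Bmp4* from 47007194 to 47008957. It was not among the features counted, so its level is not known. The controls of *Bmp4*, *Smad7* and *Id2* were in the reverse order of those of *T*, with replicate 2 highest and replicate 1 lowest. Of the 10 members, *Nog* had the order of *T* and these 3 its reverse, as did 25.5% and 23.6% of all genes tested. The part of mesendoderm cells in these values was not tested. *Smad6* and *Bambi* hardly varied among the controls.

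The rest of the pathway was read from 7 further lists, comprising 99 genes, of which 82 were tested. Earlier results of these data were known when these lists, too, were chosen. Of these, 11 were called higher and 19 lower (36.6%), against 27.7% of all genes tested (14.4% higher and 13.3% lower), with a median log2 fold change of -0.04. Of the 30 called genes, 15 were called under every alternative in which they could be tested, and the other 15 were lost under at least 1. This was not counted for all genes. Without *HOXA13* replicate 1, calls over all genes fell from 1994 higher and 1842 lower to 1134 and 904, so such losses were not particular to these lists. The control libraries of 13 of the 30 were in the order of *T* (43.3%) and those of 6 in its reverse, against 25.5% and 23.6% of all genes tested, and the part of mesendoderm cells in these calls was not tested. Among other BMP ligands, 9 of 16 genes were tested and *Bmp7* was called higher and *Bmp2* and *Bmp6* lower (33.3% called, against 27.7%). *Bmp6*, near 1 CPM or less, was lost under 6 of 15 alternatives, among them the omission of control replicate 3 or any *HOXA13* library (highest adjusted p = 0.0712). *Bmp7*, a ligand of the same pathway, rose from 3.71 ± 1.96 to 10.2 ± 0.98 CPM (log2 fold change 1.43, standard error 0.33, edgeR adjusted p = 0.0146), a call lost without control replicate 3, *HOXA13* replicate 1 or *HOXA13* replicate 2 (highest adjusted p = 0.0646). *Bmp2* had 6.06, 2.17 and 2.68 CPM in control and 1.57, 1.54 and 1.29 CPM in *HOXA13* libraries, and its fall of 1.32 on the log2 scale (edgeR adjusted p = 0.0422) was lost in all 5 cases where a library other than control replicate 2 was left out, and with limma-voom (highest adjusted p = 0.131).

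Receptors and coreceptors were called about as often as genes at large. Of 11 such genes, all tested, 1 was called higher, 2 lower and 8 not, which is 27.3% called against 27.7% of all genes tested. *Bmpr2*, the type II BMP receptor, went from 89.0 ± 10.5 to 121 ± 5.93 CPM (log2 fold change 0.45, standard error 0.09, edgeR adjusted p = 0.00982). It lies on chromosome 1, where the median gene was at 0.38, and with each chromosome centred it was at 0.08 and not called. It was also not called without *HOXA13* replicate 1. *Bmpr1b*, a type I receptor, fell by 0.77 (edgeR adjusted p = 0.0322), a call that was lost under 6 of 16 alternatives (highest adjusted p = 0.119), every single-library omission but that of control replicate 2 among them. *Hfe2*, a coreceptor at about 1 CPM or less, was the other gene called lower, and was lost under 5 of 15 alternatives, with any *HOXA13* library left out and in both DESeq2 fits (highest adjusted p = 0.0764).

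Among 12 Smads and nuclear partners 1 was called higher, 5 lower and 6 not, so 6 of 12 were called against 27.7% of all genes tested. None of the signalling Smads was called, named here outside the rule for naming genes because they carry the signal. *Smad1* had a log2 fold change of 0.03 (adjusted p = 0.859), *Smad5* of 0.12 (0.202), *Smad9* of 0.60 (0.156) and *Smad4* of -0.11 (0.211). The lower genes included *Zfp423*, a zinc finger cofactor of the BMP Smads, which fell from 52.4 ± 11.2 to 10.4 ± 1.08 CPM (log2 fold change -2.33, standard error 0.17, edgeR adjusted p = 7.38e-05), and *Skil*, a repressor of Smad-driven transcription, which fell from 166 ± 16.4 to 97.3 ± 1.25 CPM (-0.77, standard error 0.08, adjusted p = 0.000455). Both were called under all 16 alternatives. *Tob1* (0.35, adjusted p = 0.0155) and *Tob2* (-0.38, adjusted p = 0.0297), a related pair that restrain growth, were called in opposite directions, and they were lost under 4 and 5 alternatives, of which 4 each left out control replicate 3 or a *HOXA13* library. *Smurf1* and *Smurf2*, ubiquitin ligases that degrade Smads and receptors, were called lower and were each lost under 5 alternatives, the omission of any *HOXA13* library among them. *Smurf2* lies on chromosome 11, where the median gene was at -0.12, and was also lost with each chromosome centred.

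Beyond *Nog* and *Grem1*, 13 of 18 secreted antagonists and modulators were tested, and 0 were called higher, 2 lower and 11 not, or 15.4% called against 27.7% of all genes tested. *Fst*, encoding follistatin, which binds activins and some BMPs, had 144, 86.5 and 118 CPM in control and 64.9, 64.7 and 63.9 CPM in *HOXA13* libraries. The control libraries were widely spread and all above the *HOXA13* libraries, and *Fst* fell by 0.85 on the log2 scale (standard error 0.16, edgeR adjusted p = 0.00634). As for *T* and the mesendoderm sum, control replicate 1 was highest and control replicate 2 lowest for *Fst*. *Twsg1*, a BMP-binding modulator of chordin, fell by 0.36 (standard error 0.06, adjusted p = 0.00469). *Fst* and *Twsg1* were called under all 16 alternatives.

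Of 15 tested genes among 16 other targets of BMP signalling, 4 were called higher, 1 lower and 10 not (33.3% called, against 27.7% of all genes tested), with a median log2 fold change of 0.18. The 4 higher genes were transcription factors of early lineages. *Tfap2c* went from 53.8 ± 6.12 to 223 ± 4.29 CPM (log2 fold change 2.05, standard error 0.09, edgeR adjusted p = 8.21e-06). *Tbx3*, also a gene of the pluripotency network, went from 46.9 ± 17.6 to 185 ± 13.4 CPM (1.98, standard error 0.23, adjusted p = 0.000636). *Gata2* (1.90, standard error 0.22, adjusted p = 0.000624) and *Gata3* (1.57, standard error 0.12, adjusted p = 8.86e-05) were at lower levels, with 21.3 ± 1.36 and 14.7 ± 0.79 CPM in *HOXA13* cultures. *Tfap2c* and *Gata3* are also 2 of the 8 trophoblast markers. Of these markers 7 were tested, 2 called higher (these 2) and 3 lower, or 71.4% called against 27.7% of all genes tested. With all 8, the sum was 112 to 380 CPM in control and 275 to 283 CPM in *HOXA13* libraries, most of the latter from *Tfap2c* itself. The other 6 markers summed to 325, 56.3 and 149.8 CPM in control and 42.5, 41.9 and 38.6 CPM in *HOXA13* libraries. Of these, *Krt8*, *Krt18* and *Eomes* were the 3 called lower. *Hand1* (log2 fold change -2.06, edgeR adjusted p = 0.11) and *Cdx2* (0.08, adjusted p = 0.933) were not called. *Elf5*, which was not tested, had 1, 0 and 2 counts in control and 5, 8 and 8 in *HOXA13* libraries. *Gata2* and *Tbx3* had control libraries in the reverse order of *T*. *Zfp703* was called lower, and was lost with the replicate block and without control replicate 3, *HOXA13* replicate 1 or *HOXA13* replicate 3 (highest adjusted p = 0.0955).

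The bHLH proteins that ID proteins capture, or that act beside them, gave 2 higher and 3 lower genes among the 7 tested of 10 (71.4% called, against 27.7%). *Tcf3*, which encodes the E proteins that are the main partners of IDs, fell from 186 ± 13.5 to 145 ± 9.25 CPM (log2 fold change -0.36, standard error 0.08, edgeR adjusted p = 0.0111), and was lost only without *HOXA13* replicate 1 (adjusted p = 0.0533). *Tcf4*, another E protein gene, was lower by a small amount (-0.18, adjusted p = 0.048) and was lost under 9 of 16 alternatives (highest adjusted p = 0.174). *Ascl2*, a tissue-specific bHLH factor, rose from 2.09 ± 0.71 to 5.26 ± 0.60 CPM (1.30, standard error 0.26, adjusted p = 0.00745). *Neurog1* was called higher, with 4, 0 and 1 counts in control and 33, 15 and 11 in *HOXA13* libraries. *Tal1* was called lower, with 13, 23 and 16 against 1, 2 and 1 counts. Both were near the floor and passed the filter on low counts only through the group where they were higher. The 71.4% includes these 2 genes and is not read as a result about the list.

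In the TGF-beta and Nodal branch, which signals through SMAD2 and SMAD3, 15 of 16 genes were tested, with 2 called higher, 4 lower and 9 not, so 6 of 15 were called against 27.7% of all genes tested. The lower genes included the Nodal targets and inhibitors *Lefty1* (log2 fold change -1.69, standard error 0.18, edgeR adjusted p = 0.000456) and *Lefty2* (-1.28, standard error 0.13, adjusted p = 0.000371). *Lefty1* had 207, 126 and 135 CPM in the control libraries and 47.7, 50.9 and 46.6 CPM in the *HOXA13* libraries, with every control library above every *HOXA13* library. Its controls, too, were in the order of *T* and of the mesendoderm sum, and the part of such cells was not tested. *Tgfb1*, a ligand, fell by 0.73 (adjusted p = 0.0136) and was lost without *HOXA13* replicate 1 or *HOXA13* replicate 2. *Acvr1b*, a type I receptor for activin and Nodal, and *Tgif2*, a repressor of Smad-driven transcription, were called higher. *Tgif2* was lost with library size alone and with any *HOXA13* library left out (highest adjusted p = 0.0977), while *Acvr1b* was called under all 16 alternatives.

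**Figure D4:**
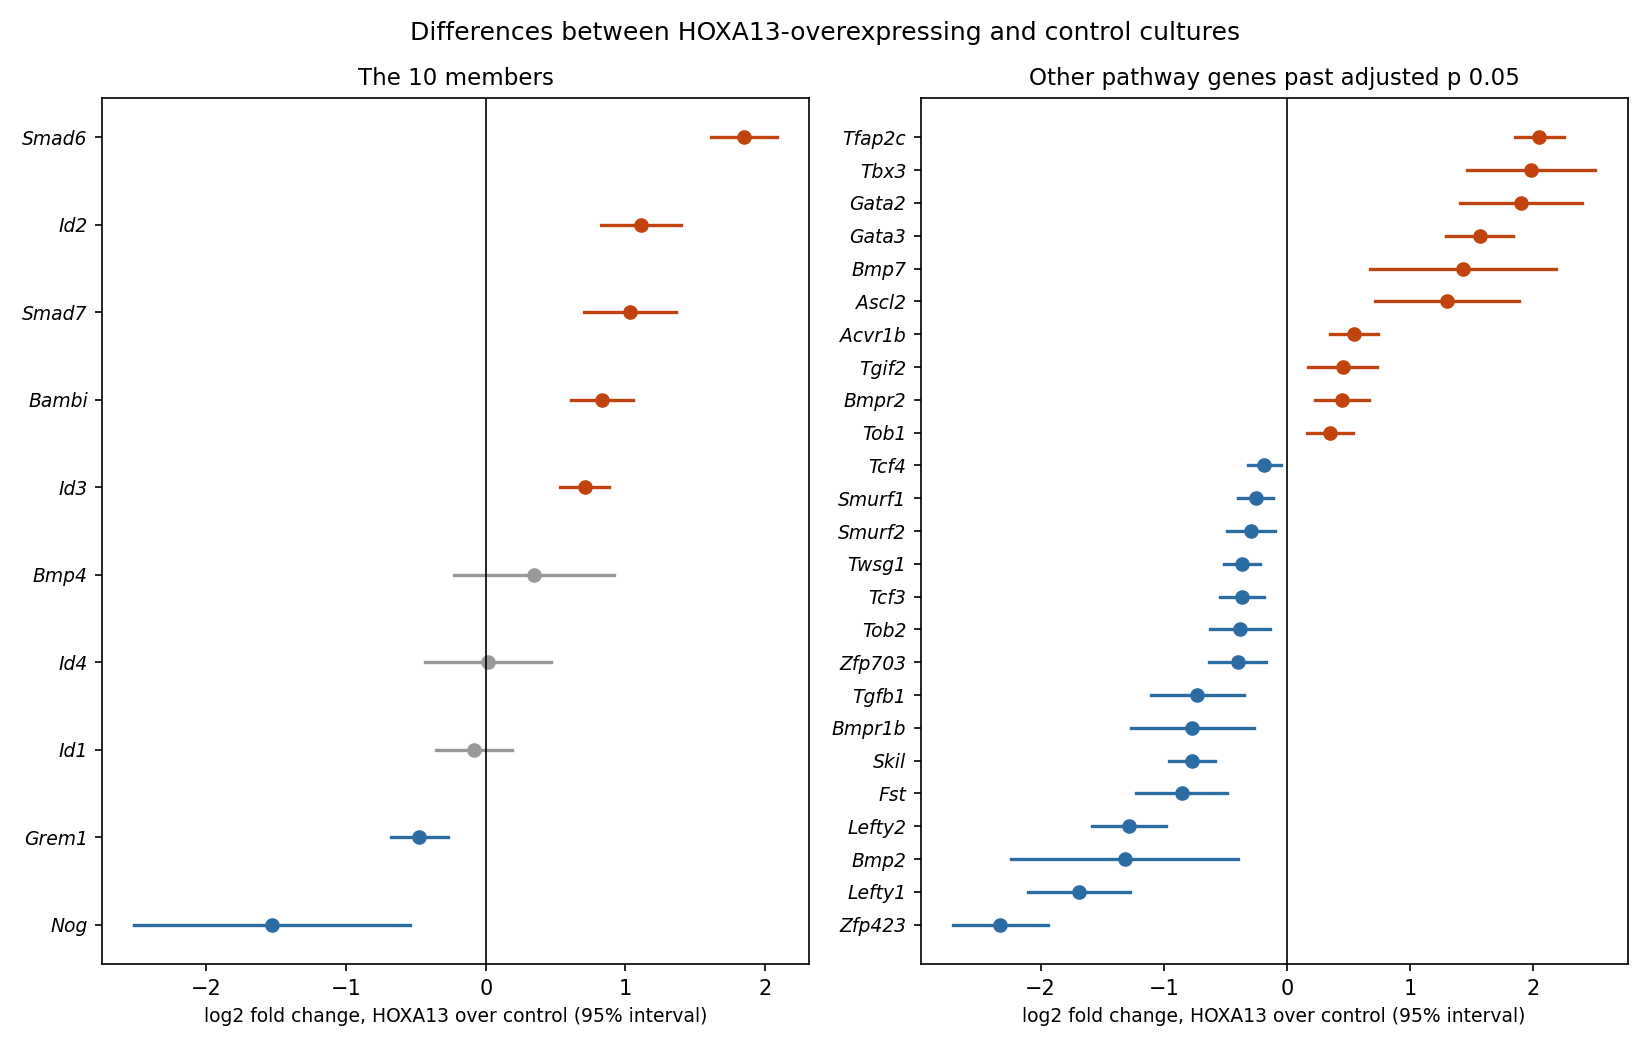
Log2 fold changes of *HOXA13* over control with 95% intervals for the 10 members (left) and for 25 of the 26 called genes of the 7 further lists whose mean was 1 log2 CPM or more (right). *Smad6* has the largest increase of the members at 1.85, the intervals of *Id1*, *Id4* and *Bmp4* include 0, and on the right *Zfp423* at -2.33 and *Tfap2c* at 2.05 are the extremes of those drawn.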

How the data were processed

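RNA was taken from 3 control and 3 *HOXA13*-overexpressing KH2 cultures, and directional libraries were made from poly(A) RNA. Per the labels and the methods, the authors mapped reads to mm9 with TopHat and deposited whole-number counts per gene from HTSeq without normalization or pooling. The submitters' processing notes name TopHat2 2.0.14, HTSeq 0.6.1p1 and bcl2fastq 2.17. The annotation, counting mode and strand setting are not given in the sources used here, so reads of overlapping genes on opposite strands may not be separated.

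The fit used edgeR 4.0.16 (R 4.3.3): filterByExpr (minimum count 10, minimum total 15), TMM factors, and glmQLFit with glmQLFTest without covariates, with Benjamini-Hochberg adjustment over 13846 genes at 0.05. Log2 fold changes used a prior count of 0.125. Standard errors are the absolute log2 fold change over the square root of F. The code was first tested on simulated counts. The alternatives tried were other scalings (RLE, or library size alone), other filters (none, or 10 counts per library throughout), robust estimation, a block for the replicate number, omission of single libraries, other tools (DESeq2 1.42.0, with and without a prior, and limma-voom from limma 3.58.1) and centring of each chromosome. Total counts were 13494135 to 21766589 per library, and libraries of 1 group differed by more than counting error (chi-square per degree of freedom 1.89 to 34.2). Positions and exon lengths are from GENCODE for mm9, on which 22167 of the 24393 features were placed.

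The members and lists (ligands; receptors and coreceptors; Smads and nuclear partners; secreted antagonists and modulators; other targets; bHLH partners of ID proteins; the TGF-beta and Nodal branch; and markers of fibroblasts, embryonic stem cells, mesendoderm, primitive endoderm, trophoblast and neural cells) were chosen with earlier results of these data known, and no list was tested as a set. All 10 members are named, and from each pathway list the called genes, with values for at most 4 with the largest absolute log2 fold changes and a mean of 1 log2 CPM or more. In the TGF-beta and Nodal list, 1 gene is included in the counts and is not reported here by name. Figures were drawn with matplotlib 3.10.9.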

Additional observations from a re-analysis of the deposited data

How the results depend on the processing

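Under 16 alternatives *Id2*, *Id3*, *Smad6*, *Smad7*, *Bambi* and *Grem1* were called every time, with log2 fold changes of 1.03 to 1.23, 0.64 to 0.76, 1.77 to 1.90, 0.89 to 1.20, 0.75 to 0.87 and -0.55 to -0.39. *Id1* and *Id4* were called under none. *Id4* changed sign with library size alone (-0.056) and with each chromosome centred (-0.016), and ranged from -0.16 to 0.12 as single libraries were left out. *Nog* was called under 10 of 16 (-1.82 to -1.01). *Bmp4* was called only without control replicate 2, and ranged from 0.10 to 0.71. Replicate numbers did not pair the cultures (correlations of -0.0154, -0.0454 and 0.0182 between same-numbered libraries). With the replicate number as a block 1 member was called lower in place of 2, since *Nog* was not (-1.45, adjusted p = 0.0721), and the block changed no other member's call. Leaving out single libraries gave 5 to 6 members called higher and 1 to 2 lower. In the further pathway lists it gave 7 to 14 higher and 8 to 23 lower, and over all genes 1134 to 2428 higher and 904 to 2579 lower. Over all genes the counts were higher without control replicate 1 or 2 and lower without control replicate 3 or any *HOXA13* library, and the cause was not tested. Library size alone shifted the median gene by -0.07 and gave 1576 higher and 2500 lower genes, against 1994 and 1842 with TMM, with the same 5 higher and 2 lower members. Per length by the longest transcript, *Smad6* was at 2.49 and 8.94 CPM per kb in control and *HOXA13* cultures and *Id3* at 91.4 and 149. *Nog* had 10 to 80 counts in a library, and its control libraries, with 80, 18 and 44 counts, were also widely spread. The primitive endoderm markers summed to 975 to 1110 CPM in control and 730 to 835 CPM in *HOXA13* libraries. Those of neural cells summed to 156 to 372 CPM and 90.7 to 98.8 CPM, so both differed between the groups as well. Of 9 tested primitive endoderm markers 2 were called higher and 3 lower (55.6%), and of 5 neural markers 0 and 3 (60.0%). Of 12 embryonic stem cell markers 5 were higher and 3 lower (66.7%), and of 9 mesendoderm markers tested 0 were higher and 6 lower (66.7%). Of all genes tested, 27.7% were called.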
